A study of Mus musculus with 2 samples.

Results

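Transcript levels of 27 genes of cholesterol synthesis and its control were examined with and without Adriamycin in R1E cells, a line of mouse embryonic stem cells. These genes and the other lists used below were chosen with earlier results of these data known. The 27 genes were listed by pathway knowledge and found by symbol, and the list's rule used no measured value. They are 27 of the 55414 genes in the count tables, and all 27 passed the filter of a mean of at least 1 CPM (a count scaled by the size of its library), which 14871 genes passed. The list does not hold every gene of the pathway. Both libraries came from wild type cells kept in medium with 15% fetal bovine serum and leukemia inhibitory factor at 1000 U/mL. The untreated library is labelled 0 h, and the other came from cells that received Adriamycin (doxorubicin, a drug that traps topoisomerase II on DNA) at 0.5 µM for 8 h. Each condition has 1 library, so no test between conditions was possible. Drug, time and culture cannot be told apart. A gene is called higher or lower here when the scaled ratio is at least 2-fold, which is a rule of size.

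Cholesterol is built from acetyl-CoA through mevalonate, isoprenoid diphosphates, squalene and lanosterol. Transcription of the enzymes is driven by the sterol regulatory element binding proteins (SREBPs), which are made as membrane proteins of the endoplasmic reticulum. Scap escorts them to the Golgi for cleavage when sterols are scarce, and the Insig proteins hold Scap back when sterols are plentiful. Serum supplies cultured cells with lipoprotein cholesterol as a further source.

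Depth was alike, with 41820999 reads assigned to genes without the drug and 38561292 with it. Below, a pair of read counts gives the untreated library first and the Adriamycin library next. All 10 stem cell markers were measured, with summed levels of 7284 and 4077 CPM in the untreated and Adriamycin libraries, and 6 of them were at least 2-fold lower, against 6.95% of all measured genes. With total counts 2 of the 10 were. The p53 targets listed as a check of drug exposure were at least 2-fold higher in 10 of 10 cases, against 17% of all measured genes. Mdm2, which encodes the ligase that degrades p53, had 5110 and 37286 reads, and the cell cycle inhibitor gene Cdkn1a had 2289 and 7240. Among stem cell factors, Pou5f1 had 34285 and 24502 reads, Sox2 17762 and 13563, and Nanog 23059 and 7436. Of 12 fibroblast markers, listed for feeder cells, 6 were measured. At least 2-fold higher were 3 of these 6, against 17% of all measured genes. The 3 were Fbln2 with 247 and 2177 reads (8.63-fold), Col1a1 with 214 and 1295 (5.92-fold) and Col6a1 with 7 and 107 (14.1-fold). The other measured markers were not called: Thy1 had 484 and 448 reads, Col1a2 59 and 62, and Pdgfrb 636 and 971. Of those not measured, Col3a1, Dcn, Lum and Postn had 0 reads in both libraries. The summed level of the fibroblast markers was 42.2 CPM without the drug and 126 CPM with it, and their part in the results on sterol genes was not tested. Markers of primitive endoderm had summed levels of 130 and 104 CPM, and none of the 7 measured was called.

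Most enzymes of cholesterol synthesis had ratios below 1 in the Adriamycin library but within 2-fold, while Scap and Lpin1 were several-fold higher. Of the 27 genes, 3 were at least 2-fold lower (Fdps, Sqle and Ebp) against 6.95% of all measured genes. At least 2-fold higher were 2 (Scap and Lpin1), against 17% of all measured genes. As shares these are 11.1% lower and 7.41% higher. With a 1.5-fold rule 9 were lower and 3 higher, against 18.9% and 25.7% of all measured genes. The log2 ratio, Adriamycin over untreated, was below 0 for 21 of 27 genes, a share of 77.8% against 51.6% of all measured genes. The median log2 ratio of the 27 genes was -0.42, and that of all measured genes was -0.03. A closer background is the 11088 measured genes within the 27 genes' range of mean CPM (5.20 to 544). Of these 56.0% were below 0, with a median of -0.09, and 12.6% were at least 2-fold higher and 6.07% lower. In bulk RNA, fewer cells of a kind and less RNA per cell cannot be told apart.

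Ratios below 1 were found mostly among the enzymes. Among the 18 enzymes 17 had a log2 ratio below 0, with a median of -0.50 and a range of -1.52 to 0.06. The 9 other genes, which are regulators, sterol carriers and Lpin1, were mixed, with a range of -0.68 to 1.98. Of these, 4 were below 0 (44.4%, against 51.6% of all measured genes). Stard4, Npc1 and Insig1 lay below the median of the enzymes. Levels that can be compared between genes are given as reads per kilobase of exon and unit of library depth (RPKM). Summed over the 18 enzymes the level was 348 RPKM in the untreated and 242 RPKM in the Adriamycin library, which is 69.6% of the untreated sum. Over all measured genes the summed level in the Adriamycin library was 92.5% of that in the untreated one. Total-count scaling put the median of all measured genes at 0.12 and upper-quartile scaling at -0.15. The median of the 27 genes lay 0.40 below it under each scaling. A change of scaling shifts all log2 ratios nearly alike, so this gap could hardly change and is no check of the result.

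**Figure D1:**
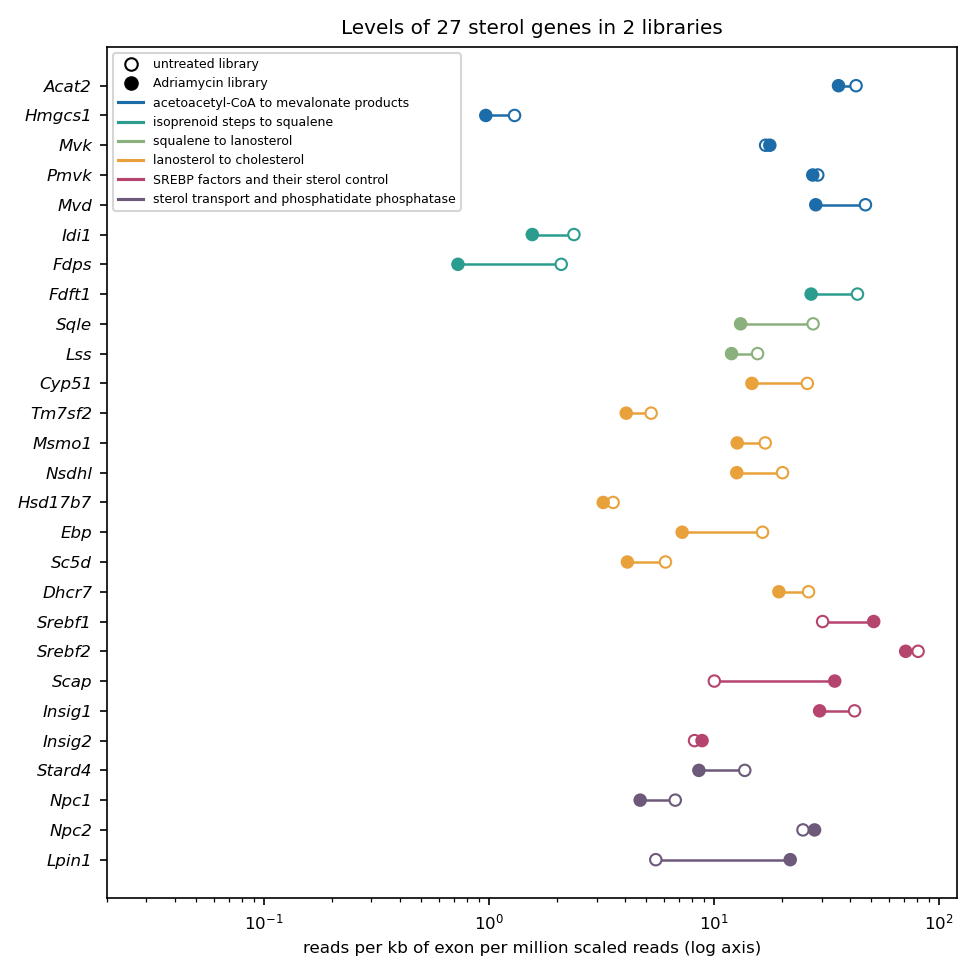
Level of each of the 27 genes in RPKM (log axis) in the untreated library (open circles) and the Adriamycin library (filled circles), ordered and coloured by role. Scap and Lpin1 lie far to the right of their untreated levels, and nearly all enzymes lie to the left of theirs.

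Promoter sequences are shown for 4 genes: the only one whose window held the SREBP consensus, and the called genes that have an entry. RefSeq windows on build GRCm38.p6, from 250 bases before to 50 after a start site, were matched for 22 of the 27 genes. Fdps, Fdft1, Sqle, Stard4 and Npc1 were not among them. The sterol response element consensus TCACNCCAC, searched on both strands, was in the window of 1 gene, Hmgcs1, against 1.44% of all 27025 genes with a window. Sterol elements with other letters, or outside the windows, would be missed by this search. The box CCAAT, the site of NF-Y, a factor known to work with SREBPs, was in the windows of 19 of 22 genes (86.4%), against 41.1% of all genes and 43.0% of measured genes. The GC box GGGCGG was in 20 of 22 (90.9%), against 38.2% of all and 68.7% of measured genes. The E-box CANNTG was in 18 of 22 (81.8%), against 75.0% of all and 67.9% of measured genes. Capitals below mark TCACNCCAC and CCAAT on either strand, which do not overlap each other, and CCAAT on the opposite strand reads ATTGG. The windows of Hmgcs1 at chr13:119690101-119690400 (plus strand), Ebp at chrX:8193463-8193762 (minus strand), Scap at chr9:110333038-110333337 (plus strand, the most 5′ of 2 windows) and Lpin1 at chr12:16610917-16611216 (minus strand) read as follows.
Hmgcs1: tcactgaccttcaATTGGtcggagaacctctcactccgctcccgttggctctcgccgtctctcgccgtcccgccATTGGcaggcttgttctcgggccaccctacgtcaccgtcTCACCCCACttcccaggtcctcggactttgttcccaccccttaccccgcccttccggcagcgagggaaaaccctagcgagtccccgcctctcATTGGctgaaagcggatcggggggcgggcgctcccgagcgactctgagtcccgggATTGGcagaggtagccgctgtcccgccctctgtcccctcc
Ebp: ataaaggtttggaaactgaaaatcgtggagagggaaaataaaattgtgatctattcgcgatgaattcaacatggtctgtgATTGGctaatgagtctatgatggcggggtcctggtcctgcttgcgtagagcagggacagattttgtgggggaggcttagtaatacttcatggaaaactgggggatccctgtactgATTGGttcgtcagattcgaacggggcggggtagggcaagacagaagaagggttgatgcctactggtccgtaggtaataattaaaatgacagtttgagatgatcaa
Scap: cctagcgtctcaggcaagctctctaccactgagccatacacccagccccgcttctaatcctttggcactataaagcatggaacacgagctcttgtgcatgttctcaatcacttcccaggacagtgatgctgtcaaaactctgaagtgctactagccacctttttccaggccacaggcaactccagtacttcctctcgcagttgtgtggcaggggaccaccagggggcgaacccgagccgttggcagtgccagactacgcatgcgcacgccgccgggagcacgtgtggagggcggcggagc
Lpin1: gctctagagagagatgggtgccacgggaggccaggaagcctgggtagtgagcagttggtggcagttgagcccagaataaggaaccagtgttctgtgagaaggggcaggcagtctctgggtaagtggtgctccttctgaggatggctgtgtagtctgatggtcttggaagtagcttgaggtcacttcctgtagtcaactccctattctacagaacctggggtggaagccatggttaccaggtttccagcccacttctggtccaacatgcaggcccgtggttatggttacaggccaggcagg

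In the Hmgcs1 window the sterol element began 137 bases before the start site and was flanked by 4 CCAAT boxes. The Ebp window held 2 CCAAT boxes, 170 and 55 bases before the start site. No CCAAT was found in the windows of Acat2, Scap and Lpin1, and the last 2 of these are the genes called higher. The Lpin1 window stands at the start of a gene model of 75.3 kb, whereas the deposited annotation gives Lpin1 111 kb, so another start site may lie outside it. These are matches of letters, and whether a factor binds there was not measured.

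The enzymes that lead to mevalonate and its phosphates differed least. Acat2, a cytosolic thiolase that joins acetyl-CoA units, had 4322 and 3682 reads, and its log2 ratio was -0.26. The 95% counting interval, computed with counts divided by 2 because mates were counted separately, was -0.35 to -0.17. Mvk, mevalonate kinase, had 1801 and 1917 reads (log2 ratio 0.06, -0.07 to 0.20), and its ratio was -0.06 with upper-quartile scaling. Pmvk, which adds the next phosphate, had 1967 and 1905 reads (log2 ratio -0.07, -0.20 to 0.06), and its ratio was 0.07 with total counts. For both kinases the interval held 0. Mvd, the decarboxylase that makes isopentenyl diphosphate, had 3477 and 2132 reads and was 1.66-fold lower (log2 ratio -0.73, -0.84 to -0.62). Hmgcs1, the synthase that makes HMG-CoA, had only 237 and 180 reads. Its log2 ratio was -0.42, with a wide interval of -0.84 to -0.02.

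The Hmgcs1 count was low for a gene of this pathway, at 1.30 and 0.97 RPKM. The gene lies on chromosome 13 (120151915 to 120169796, GRCm39) among genes with few or no reads. Of its 7 protein-coding neighbours within 200 kb, 4 had 0 reads in both libraries: Ccl28, Nim1k, Zfp131 and AF067063. Around each of the other 26 genes at most 2 such neighbours had 0 reads, and never more than 20.0% of those present. Zfp131, a zinc finger gene, and the other neighbours were named after their values were seen. Whether reads of this stretch were lost before counting was not tested.

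Of the 3 genes of the isoprenoid steps toward squalene, 1 was at least 2-fold lower, and all 3 had log2 ratios below 0. Idi1, the isomerase of isopentenyl diphosphate, had 332 and 221 reads (log2 ratio -0.61, -0.98 to -0.26). Fdps, farnesyl diphosphate synthase (ENSMUSG00000059743, chromosome 3, 89000895 to 89009266, GRCm39), had 350 and 124 reads and was 2.87-fold lower, the lowest ratio of the 27 genes (log2 ratio -1.52, -1.97 to -1.10). Fdft1, squalene synthase, had 7095 and 4501 reads and was 1.61-fold lower (log2 ratio -0.68, -0.76 to -0.61). The reads of Fdps and Idi1 were few beside those of Fdft1, which acts next in the chain.

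Both Fdps and Idi1 have processed pseudogenes with which their reads can be confused. Of the 27 genes, 3 had such copies by transcript alignment (at least 90% identity over 200 bases): Fdps with 5, Idi1 with 3 and Fdft1 with 1. The Fdps copy Gm3571, on chromosome 10, is 98.9% identical over 1062 bases and had 292 and 116 reads, nearly as many as Fdps itself. Gm5873, on chromosome 6, is 96.7% identical over 1066 bases and had 118 and 28 reads. Gm8163 had 9 and 7 reads, Gm7979 had 1 and 0, and Gm7513 had 0 in both libraries. Fdps and its copies together had 770 and 275 reads, a log2 ratio of -1.51, close to the -1.52 of Fdps alone. The ratio was thus about the same with and without the copies, and the level of Fdps is uncertain. Reads of Fdps misplaced to its copies would give this likeness in any case, so it is no check of the ratio. Reads that map to several places are not in the counts.

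**Figure D2:**
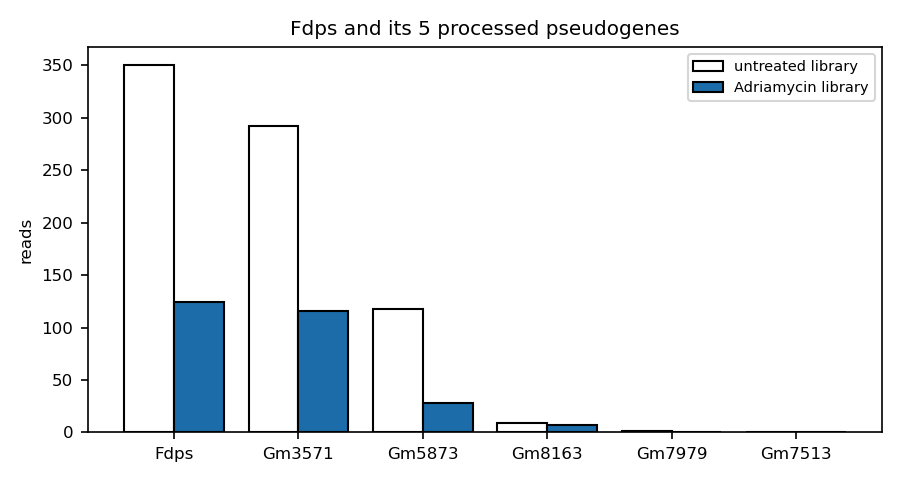
Reads assigned to Fdps and to its 5 processed pseudogenes in the untreated (white bars) and the Adriamycin library (blue bars). Fdps had 350 and 124 reads and Gm3571 had 292 and 116, so both pairs of bars are of similar height and step down alike.

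Other near copies held few reads or stood apart from their parent gene. The Idi1 copy Gm13502 is 100% identical over 684 of 3027 transcript bases and had 2 and 0 reads, and the other Idi1 copies had 0. The Fdft1 copy Gm6781 had 346 and 196 reads, and with it Fdft1 had a log2 ratio of -0.69. Acat3, a thiolase gene 97.7% identical to Acat2 over 1477 bases, had 36 and 40 reads. Tcp1, a chaperonin subunit gene, matches Acat2 at 98.7% over 445 bases and had 27400 and 16413 reads. Exons of 10 of the 27 genes overlap those of another gene, and without strand their reads cannot be told apart there. For 3 of the 27 an overlapping gene is on the same strand, where strand would not help. The overlap was widest in Fdps, with 26.7% of its exon bases (Gm43738, same strand), followed by Fdft1 with 18.8% (Ctsb, opposite strand). Gm43738 is 100% identical to Fdps over 929 of 1382 transcript bases and had 0 reads in both libraries. Whether Fdps reads went uncounted because of this overlap was not tested. The lysosomal protease gene Ctsb had 5941 and 7743 reads, a log2 ratio of 0.35 against -0.68 for Fdft1.

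Squalene epoxidase stood below its partner in the cyclisation of squalene. Sqle (ENSMUSG00000022351, chromosome 15, 59186926 to 59203041, GRCm39), which adds the epoxide oxygen and is a rate-limiting step of the sterol branch, had 6072 and 2947 reads. It was 2.10-fold lower (log2 ratio -1.07, -1.16 to -0.98), and the log2 ratio was -0.93, under 2-fold, when libraries were scaled by total counts. Lss, which folds the epoxide into lanosterol, had 6691 and 5224 reads and was 1.31-fold lower (log2 ratio -0.38, -0.46 to -0.31).

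All 8 enzymes that turn lanosterol into cholesterol had log2 ratios below 0, between -1.19 and -0.15. Ebp, the sterol isomerase (ENSMUSG00000031168, chromosome X, 8051568 to 8059751, GRCm39), had 1507 and 675 reads and was 2.28-fold lower (log2 ratio -1.19, -1.38 to -0.999). Cyp51, the lanosterol demethylase, had 4555 and 2634 reads (log2 ratio -0.82), and Nsdhl, a sterol dehydrogenase on the X chromosome, had 2284 and 1458 (-0.68). These 3 differed most, and their intervals excluded 0. Sc5d, a desaturase, had 1176 and 812 reads (log2 ratio -0.56). Dhcr7, the reductase of the last double bond in one branch of the pathway, had 6079 and 4574 (-0.44), and Msmo1, the C4 methyl oxidase, had 4122 and 3155 (-0.41). Their ratios lay near the median of the enzymes. Tm7sf2, a C14 reductase, had 919 and 726 reads (log2 ratio -0.37). Hsd17b7, a ketosteroid reductase, had 722 and 665 (-0.15, -0.37 to 0.07), the smallest difference of the 8.

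**Figure D3:**
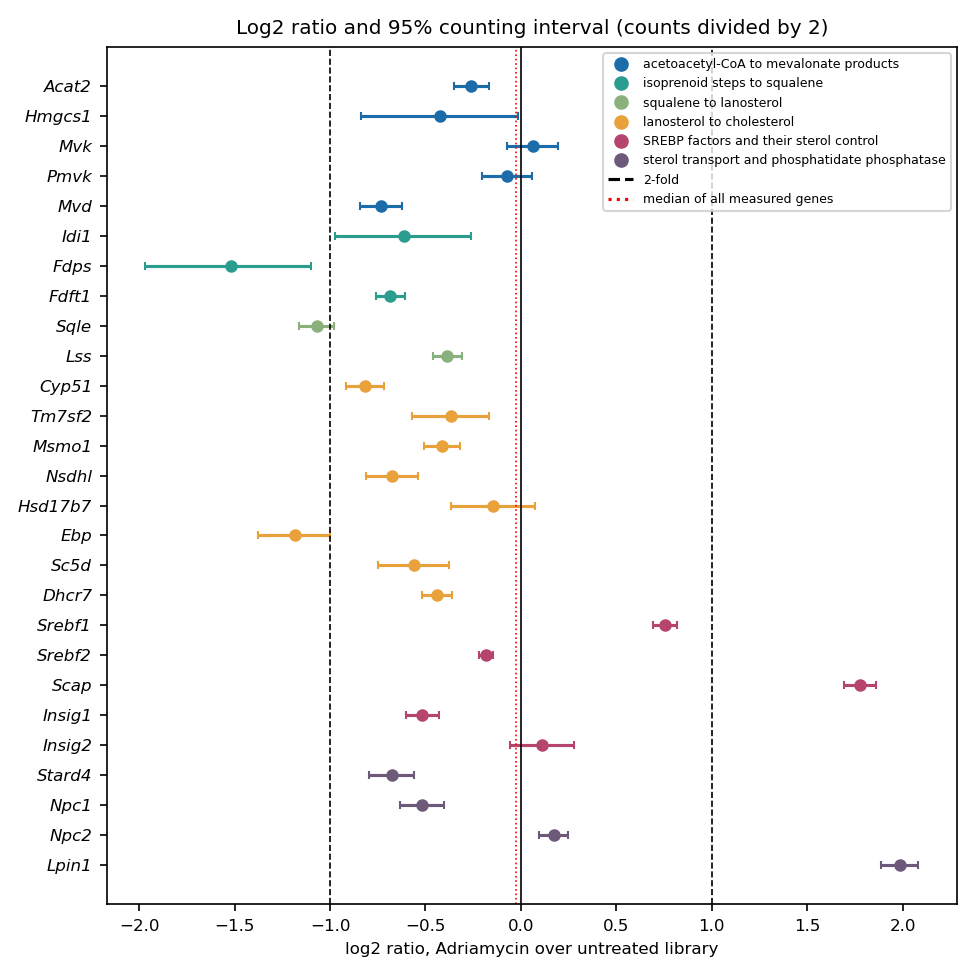
Log2 ratio of each of the 27 genes, Adriamycin over untreated library, with the 95% counting interval from counts divided by 2 (bars), which covers counting error only. Dashed lines mark 2-fold and the red dotted line the median of all measured genes at -0.03. Only Fdps among the lower genes has its whole interval past 2-fold, and among the higher genes Scap and Lpin1 do.

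The regulators moved apart. Scap, the sterol-sensing escort of the SREBPs (ENSMUSG00000032485, chromosome 9, 110162356 to 110214018, GRCm39), had 2965 and 10365 reads and was 3.43-fold higher (log2 ratio 1.78, 1.69 to 1.86). Its ratio was higher than that of 91.6% of measured genes. An unclassified gene on the opposite strand, 5830462I19Rik, shares 13.2% of the Scap exon bases and had 9 and 36 reads. Srebf1, whose products favour fatty acid genes, had 6797 and 11691 reads and was 1.69-fold higher (log2 ratio 0.75, 0.69 to 0.82). Srebf2, whose product favours cholesterol genes, had 23030 and 20675 reads (log2 ratio -0.18, -0.22 to -0.15). The level of Srebf2 was 2.66 times that of Srebf1 without the drug and 1.39 times with it, in RPKM. That of Scap was 0.124 of the Srebf2 level in the untreated and 0.484 in the Adriamycin library.

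The Insig pair differed as well. Insig1, itself a well known target of SREBPs, had 5176 and 3690 reads (log2 ratio -0.52, -0.60 to -0.43). Insig2, the paralog that does not depend on SREBPs in the same way, had 1130 and 1244 reads (log2 ratio 0.11, -0.06 to 0.28), and -0.01 with upper-quartile scaling. The intervals of the 2 paralogs did not overlap. Insig1 was 5.14 times as high as Insig2 in the untreated and 3.33 times as high in the Adriamycin library, in RPKM.

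Among genes of sterol transport, Stard4, a cytosolic sterol carrier whose gene responds to SREBP-2, had 3039 and 1937 reads (log2 ratio -0.68, -0.80 to -0.56). Npc1 and Npc2 work together to export cholesterol from lysosomes, and their ratios lay on either side of 0. Npc1, the membrane protein, had 3023 and 2152 reads (log2 ratio -0.52, -0.63 to -0.40). Npc2, the soluble carrier, had 5366 and 6161 (0.17, 0.10 to 0.25). Lpin1 (ENSMUSG00000020593, chromosome 12, 16585670 to 16696967, GRCm39) encodes a phosphatidate phosphatase that can also act in the nucleus on SREBP, and the gene is described as a p53 target in other cells. It had 2173 and 8769 reads and was 3.96-fold higher (log2 ratio 1.98, 1.89 to 2.08), the highest ratio of the 27.

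The largest moves in the order of levels were those of Scap and Lpin1, followed by Fdft1 and Sqle and then Ebp. Srebf2 ranked 1 in both libraries, at 80.6 and 71.0 RPKM. Scap went from rank 18 (10.0 RPKM) to rank 4 (34.3 RPKM), and Lpin1 from rank 22 (5.50 RPKM) to rank 10 (21.8 RPKM). Srebf1 went from rank 6 (30.3 RPKM) to rank 2 (51.2 RPKM). Among the enzymes, Mvd went from rank 2 (47.0 RPKM) to rank 6 (28.3 RPKM), Fdft1 from rank 3 (43.3 RPKM) to rank 9 (26.97 RPKM) and Sqle from rank 8 (27.5 RPKM) to rank 14 (13.1 RPKM). Ebp went from rank 15 (16.4 RPKM) to rank 20 (7.21 RPKM). Hmgcs1, Fdps and Idi1 held the last 3 ranks in both libraries, at 2.38 RPKM or less. Of the 26 pairs of neighbours in the order, 14 had overlapping counting intervals without the drug and 13 with it when counts were divided by 2, and 13 and 11 on undivided counts, so their order is not resolved. Fdft1, Acat2 and Insig1 were such neighbours in the untreated library, at 43.3, 42.7 and 42.1 RPKM.

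Gene structure varied widely over the 27 genes. The genomic span ran from 5.55 kb (Tm7sf2) to 111 kb (Lpin1), with a median of 17.9 kb. Across the 27 genes, which are not independent replicates, Spearman's rho between span and log2 ratio was 0.42 and Pearson's r on log values was 0.61, and rho was 0.27 without Scap and Lpin1. The number of merged exons ran from 4 to 28 (rho 0.31, r 0.54, and rho 0.13 without those genes). Exon length ran from 1713 to 11317 bases (rho 0.28, r 0.36, and rho 0.14 without them). Over all measured genes rho between span and log2 ratio was 0.03. The untreated level in RPKM and the log2 ratio had a rho of -0.03. These are descriptions of 2 libraries.

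Genes of fatty acid synthesis and desaturation, many of them SREBP targets, had log2 ratios below 0 in 16 of 19 measured cases. At least 2-fold lower were 4 and higher 0, beside 6.95% and 17% of all measured genes, and the median was -0.50. Scd1 and Scd2 make monounsaturated fatty acids. Scd1 had 3619 and 1101 reads and was 3.35-fold lower, and Scd2 had 20573 and 8105 and was 2.59-fold lower. Acsl3, an acyl-CoA synthetase gene, had 2526 and 1094 reads (2.35-fold lower), and shares exon bases with Utp14b. Of 4 measured genes among other sterol synthesis genes, 1 was lower. This was Lbr, the lamin B receptor, which has the same C14 reductase activity as Tm7sf2, with 8467 and 3650 reads (2.36-fold lower).

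In the list of sterol esterification, trafficking and oxysterol enzymes, 10 of 24 measured genes were higher and 1 lower, with a median log2 ratio of 0.65. All measured genes had shares of 17% higher and 6.95% lower. Cyp27a1, a sterol hydroxylase, had 104 and 883 reads (8.29-fold higher), the carrier gene Osbpl5 had 249 and 1752 (6.89-fold) and Cyp46a1, the cholesterol 24-hydroxylase best known from neurons, had 58 and 361 (6.06-fold). The higher genes include Nr3c1, the glucocorticoid receptor, whose place on the list is doubtful. Of 12 genes of sterol efflux and the LXR receptors, 2 were higher and 0 lower, with a median of 0.35. The share of 16.7% higher is near the 17% of all measured genes, and the count was 1 with upper-quartile factors and 3 with total counts. The sterol exporter gene Abcg1 had 1155 and 3842 reads (3.26-fold higher), and Rxra, the partner of LXR, had 2724 and 5799 (2.09-fold higher).

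The 3 remaining lists stayed near the median of all genes, and their medians were above 0 with total counts. Of all measured genes 17% were higher and 6.95% lower, and none of these lists had a larger share of either. Of 19 genes of SREBP processing and turnover, 2 were higher (10.5%) and 1 lower (5.26%), around a median of -0.11. With upper-quartile factors 1 was higher. Fbxw7, which marks nuclear SREBPs for destruction, had 2356 and 6002 reads (2.50-fold higher), and Sec24b, part of the coat that carries Scap to the Golgi, had 4518 and 9741 (2.11-fold higher). Rnf145, a ubiquitin ligase that acts on Scap, had 6526 and 2856 reads (2.33-fold lower). In the isoprenoid branches other than sterols none of 18 genes was called (0 higher, 0 lower), the median was -0.07, 3 were higher with total counts, and 1 was lower with upper-quartile factors. Among 18 genes of lipins and phospholipid synthesis 1 was higher and 1 was lower (5.56% each, median -0.09), and 2 were higher with total counts. The higher one is Lpin1, and the lower one is Pcyt1b, which serves phosphatidylcholine synthesis, with 5994 and 1690 reads (3.62-fold lower).

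**Figure D4:**
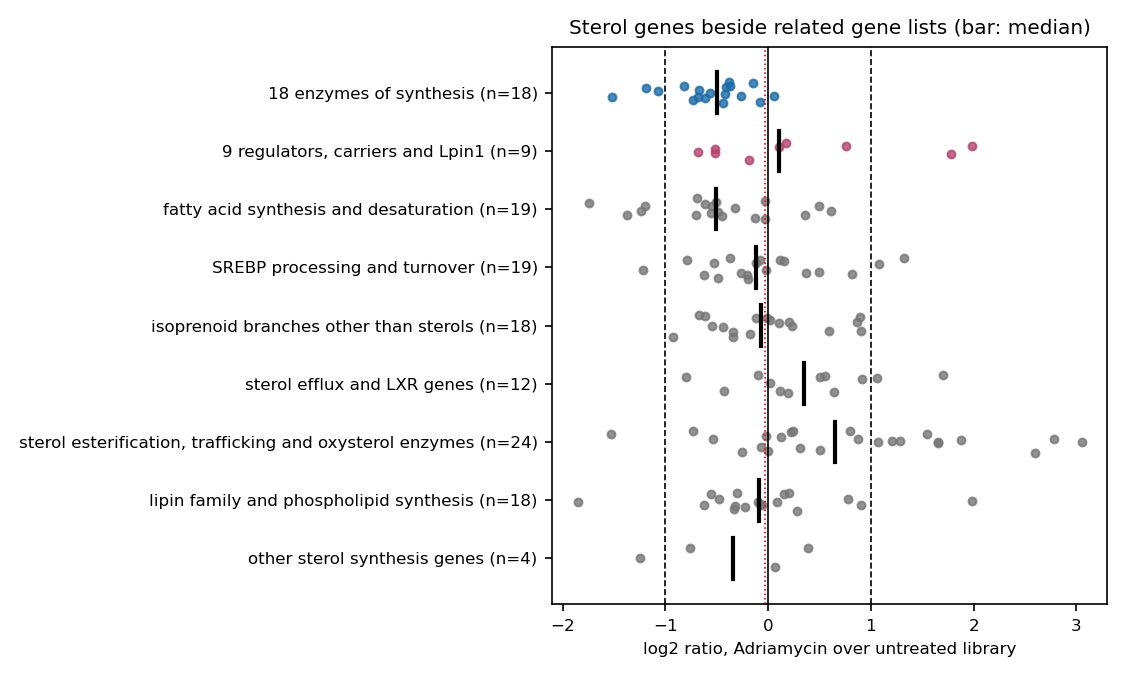
Log2 ratio, Adriamycin over untreated library, of each measured gene in the sterol enzymes (blue), the 9 other genes of the set (magenta) and 7 related lists (grey), with the median as a bar. Dashed lines mark 2-fold and the red dotted line the median of all measured genes. Sterol enzymes and fatty acid genes have the same median of -0.50, and sterol esterification, trafficking and oxysterol genes have one of 0.65.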

How the data were processed

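RNA was sequenced in 1 untreated and 1 Adriamycin library. The authors deposited raw read counts per gene, made with featureCounts 2.0.3 on annotation release 105 of GRCm39 per the file headers, without a strand, multi-mapping or pair-count option. A count of 2 was more frequent than 1 (2067 against 1629 genes untreated), as mates counted separately give. Exon lengths are also from the deposited tables. The submitters' processing notes name HISAT2 2.0.4, featureCounts 1.6.0, mm9 and mm10, which differ from the headers.

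Symbols matched 52081 of 55414 identifiers (GENCODE M21). Counts were scaled with TMM factors of 0.951 and 1.05 (edgeR 4.0.16). Log2 ratios use a pseudocount of 0.5 read and are given where the mean over both libraries reached 1 CPM. Intervals are exact 95% conditional binomial ones (Clopper-Pearson), in the text on counts divided by 2, and cover counting error only. With no replicate there is no test and no p-value. Copies were searched with BLAST+ 2.17.0, Python 3.11.15 did the rest, and the scripts were tested on simulated data. The 27 genes and all lists were chosen with earlier results of these data known. All 27 genes are named, and in each related list up to 3 called genes whose interval lay farthest from 0. The checks name Mdm2, Cdkn1a, Pou5f1, Sox2 and Nanog, which were listed by name and not picked by that rule. Fibroblast markers that were measured or at 0 reads in both libraries, and Nr3c1, were named after their values were seen. Alternatives were total counts, upper-quartile and DESeq2 1.42.0 size factors, other filters, a pseudocount of 5, a 1.5-fold rule, the near end of the interval, and leaving out Fdps or genes with overlapping exons.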

Additional observations from a re-analysis of the deposited data

How the results depend on the processing

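The median log2 ratio of the 27 genes was -0.28 when scaled by total counts and -0.55 by upper-quartile factors, moved by the scaling alone, and between -0.42 and -0.41 under the other alternatives run. The count of lower genes was 9 with a 1.5-fold rule and 1 (Fdps) where the near end of the counting interval from halved counts had to pass 2-fold. It was 2 with total counts, which left Sqle out, 2 when Fdps or the genes with overlapping exons were left out, and 3 under the other scalings, filters and pseudocount. The count of higher genes was 2 in each of these settings, except 3 with the 1.5-fold rule and 1 without the genes with overlapping exons, Scap being one of them. Mvk, Pmvk and Insig2 changed sign under one of the scalings, and the other 24 genes did not. Intervals from halved counts held 0 for 4 genes. Leaving out a replicate was not possible with 1 library per condition. No paired analysis was possible for the same reason, and the labels carry no replicate numbers. Depth limits Hmgcs1, Idi1 and Fdps, with 124 to 350 reads per library, more than the other genes.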

Other observations

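All 37 mitochondrial genes had 0 reads in both libraries, so their share of reads could not serve as a sign of RNA quality.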
